A study of Schizosaccharomyces pombe with 4 samples.

Results

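The RNA decay genes described here are 10 genes chosen by name among the 5129 that are annotated as protein-coding. They are *dhp1* and *din1* (5′-3′ decay), *dcp2* and *dcp1* (decapping), *upf1* (nonsense-mediated decay, NMD), *dis3* and *rrp6* (exosome nucleases), *mtr4* and *cid14* (exosome cofactors), and *exo2*, which is the gene deleted in these cells and served as a control only. All 10 were found in the table, and 9 of them are intact in the strain. NET-Seq (native elongating transcript sequencing) was performed in *S. pombe* strain YAM2507, of mating type h-, with kanR in place of *exo2* and a Flag tag, marked with natR, on the RNAPII subunit Rpb3. Cells came from exponentially growing cultures. The nascent libraries (IP) hold the RNA that was purified together with RNAPII, and the input libraries were made by the same protocol without that purification and thus hold total RNA. There were 2 biological replicates of each kind. All 4 libraries carry the *exo2* deletion and the tag, in a single strain. WT cells were not analysed here, and no effect of the deletion can be read from these values.

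Eukaryotic mRNA is degraded from both ends. After the poly(A) tail is shortened, the decapping enzyme Dcp2 and its partner Dcp1 remove the cap, and 5′-3′ exoribonucleases digest the body: Exo2 (the homologue of Xrn1) in the cytoplasm and Dhp1 (the homologue of budding yeast Rat1) in the nucleus. From the other end works the exosome, a multi-subunit 3′-5′ nuclease whose catalytic subunits are Dis3 and the nuclear Rrp6, helped by the RNA helicase Mtr4 and the non-canonical poly(A) polymerase Cid14. Upf1 is the helicase at the centre of NMD, which removes mRNAs with a premature stop codon. XUTs are long non-coding RNAs that Exo2 degrades, and those antisense to a gene are called asXUTs.

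Depth set the precision of what follows. The IP libraries had 3338808 and 6962801 reads over 9139 features, and the input libraries 10172688 and 9114952. tRNA genes took 7.18% and 6.80% of the IP reads, against 73.9% and 74.99% of the input reads, and the median protein-coding gene had 172 and 356 IP reads, against 102 and 78 input reads. The 9 intact decay genes had 50 to 1271 reads in an IP library and 16 to 383 in an input library. Values are given as density, the normalized reads per nt of the gene as deposited, which allows genes of different length to be compared. With 2 libraries of a kind, an exact permutation test cannot reach 0.05, so levels are given without a test. In these cultures, more RNA per cell and more cells with the RNA cannot be told apart.

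The signal on *exo2* checked the genotype. *exo2* (SPAC17A5.14, chromosome I, 1778445 to 1782740, + strand) had 106 and 202 reads in the IP and 51 and 48 in the input. Its mean density was at the 10.7th percentile of all genes in the IP and at the 11.6th in the input. Most IP reads lay outside the main coding exon, which held 26 and 23 of the input reads. This exon (3904 nt) had a density of 0.0113 and 0.0104 in the IP, from 44 and 86 reads, and the 309 nt of UTRs and introns had 0.159 and 0.143. The log2 ratio of the whole coding sequence to the rest of the gene was -3.47 and -3.46, at the 0.168th and 0.144th percentile of the 4172 genes with 10 reads in each region. The coding span of *exo2* therefore carried little signal in both IP replicates, although not none. The origin of these reads was not tested.

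The 9 intact genes all had nascent signal, and no mean IP density lay outside the quartiles of all protein-coding genes. Their mean IP density ran from 0.0493 in *din1* to 0.130 in *dhp1*, a 2.64-fold range, and 6 of 9 lay above the median protein-coding gene (0.0853, quartiles 0.0474 and 0.153), or 5 of 9 when only coding sequence was counted. The input spread was wider, 5.32-fold from *dcp1* to *mtr4*, and 7 of 9 lay above the median of 0.0152 (quartiles 0.00786 and 0.0299). *dhp1* and *dis3* were highest in the IP, *mtr4* and *dis3* in the input, and *dcp1* and *din1* were at the bottom of both kinds of library.

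**Figure D1:**
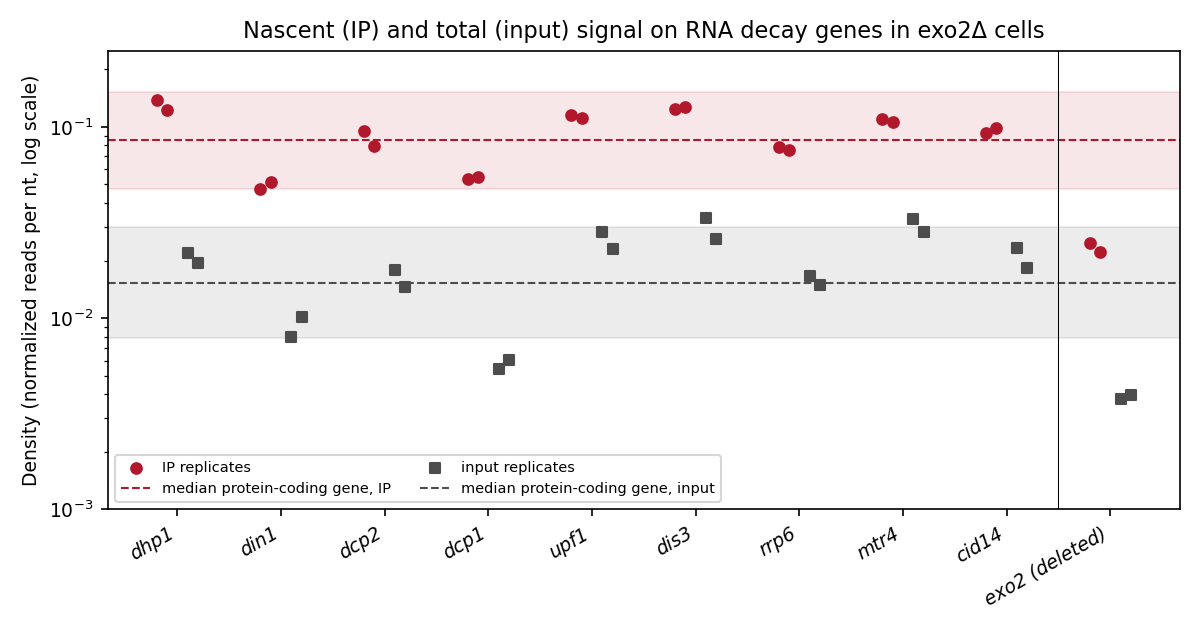
Density of each RNA decay gene (normalized reads per nt, log scale) in the 2 IP libraries (circles) and the 2 input libraries (squares), with the median (dashed) and the quartiles (band) of all 5129 protein-coding genes for each kind of library. *dcp1* lies within the IP quartiles but under the input quartiles, and the deleted *exo2* lies under both bands.

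IP over input asks how much of the signal of a gene is held by RNAPII compared with total RNA of the same cells, and it was read on 2 scales. On the authors' scale, all 9 intact genes were higher in the IP, with a log2 IP over input of 1.82 to 3.16 and an adjusted p of 2.60e-06 to 1.95e-05 (limma, Benjamini-Hochberg over 8651 features). This says little about decay genes, since 98.8% of the 5043 protein-coding genes tested were called higher there, where tRNA takes up most of the input. The IP and input values did not overlap for 9 of 9, as for 99.4% of all protein-coding genes in that direction. The second scale sets each library against its own median protein-coding gene. There, 3 of the 9 genes fell in the IP (*mtr4*, *dis3* and *upf1*), against 21.4% of all protein-coding genes. None passed the test in the other direction, against 10.4% of all genes. At an unadjusted p of 0.05, 4 were lower and 1 (*dcp1*) was higher, where 2215 of the 5043 protein-coding genes passed in either direction. edgeR also called *dcp1* (1 gene higher) while DESeq2 called 0. The median of the 9 genes was -0.19, beside -0.09 for all protein-coding genes. IP and input replicates did not overlap for 7 of 9, with the IP lower for 5 and higher for 2, where 41.5% and 26.9% of all genes do so. Fold changes are on the scale of log2(normalized reads + 0.318), which lowers IP over input for the decay genes with few reads. With a pseudocount 10 times larger, *dcp1* had 0.28 and *din1* -0.22 relative to the median gene, against 0.69 and -0.05.

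**Figure D2:**
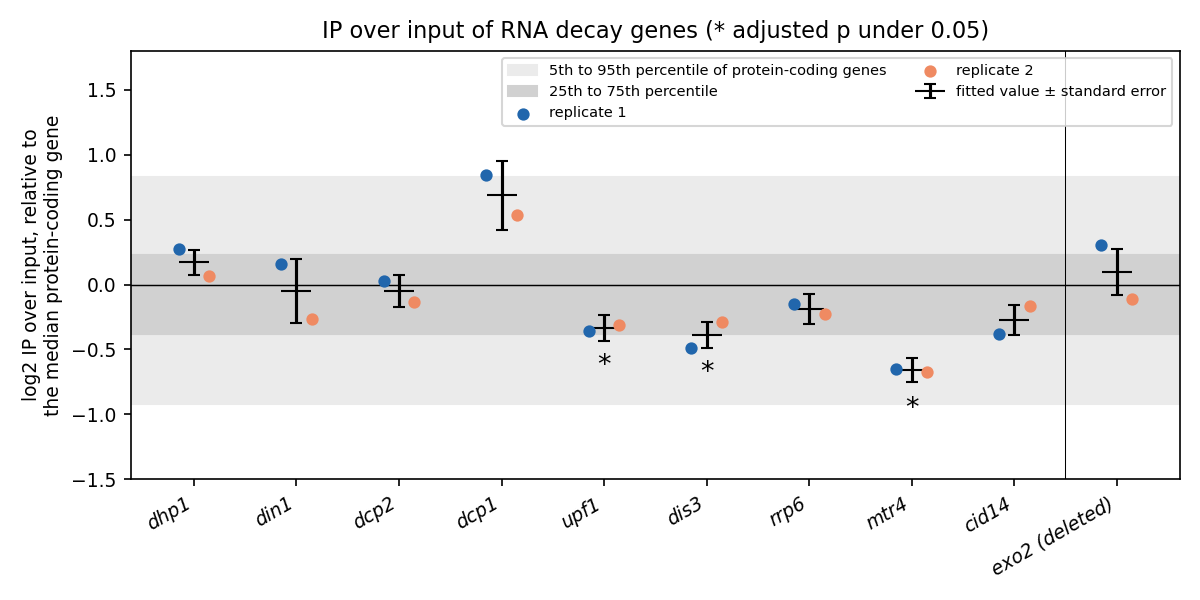
log2 IP over input of each RNA decay gene relative to the median protein-coding gene, for each replicate pair (points) and as fitted with its standard error (bars). Shading gives the central ranges of all 5043 protein-coding genes tested, and asterisks mark *upf1*, *dis3* and *mtr4*, the 3 genes that passed an adjusted p of 0.05, all lower in the IP.

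Of the 5′-3′ decay genes, *dhp1* had the highest mean nascent density of the set and *din1* the lowest. The IP replicates of *dhp1* overlapped those of *dis3*, the next gene. *dhp1* (SPAC26A3.12c, chromosome I, 3356144 to 3361083, - strand) encodes the nuclear exonuclease, which also acts in transcription termination. Its density was 0.138 and 0.122 in the IP (0.130 ± 0.0115, SD, n = 2, 68.7th percentile) and 0.0219 and 0.0195 in the input (0.0207 ± 0.00170). *din1* (SPAC19D5.06c, chromosome I, 5220220 to 5221383, - strand) encodes the Dhp1 partner that is the homologue of Rai1. It had 0.0473 and 0.0513 in the IP (0.0493 ± 0.00286, 26.2nd percentile) and 0.00793 and 0.0101 in the input (0.00902 ± 0.00154). Both IP libraries thus had more than 2 times as much density on *dhp1* as on its partner gene. Relative to the median gene, neither passed the test of IP over input (limma). *dhp1* had 0.17 (SE 0.0981, adjusted p = 0.235), and *din1* had -0.05 (SE 0.246, adjusted p = 0.907), with replicates on both sides of 0 (0.16 and -0.26).

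Of the decapping genes, *dcp1* was less dense than *dcp2* in both kinds of library. *dcp2* (SPAC19A8.12, chromosome I, 2462202 to 2465087, - strand), which encodes the catalytic subunit, had 0.0953 and 0.0790 in the IP (0.0871 ± 0.0115, 51.0th percentile) and 0.0179 and 0.0145 in the input (0.0162 ± 0.00241, 52.7th percentile). It sat at the middle of all genes in both kinds of library. *dcp1* (SPBC3B9.21, chromosome II, 3996528 to 3997467, + strand), which encodes the activating partner, had 0.0532 and 0.0550 in the IP (0.0541 ± 0.00125, 29.5th percentile). In the input it had 0.00542 and 0.00607 (0.00574 ± 0.000463, 17.6th percentile), from 16 reads in each library. *dcp1* had the highest IP over input of the 9 genes relative to the median gene, 0.69 (SE 0.267), with 0.84 and 0.53 in the replicates, which placed it at the 92.7th percentile. This did not pass the test (adjusted p = 0.0898, limma). It passed in 3 of 15 alternatives, among them the fit without input replicate 2 (0.87, adjusted p = 0.0375) and the fit on coding reads only (1.15, adjusted p = 0.0458). The coding sequence of *dcp1* had only 10 and 5 input reads, so its value on coding reads is imprecise. *dcp2* had -0.05 (SE 0.123, adjusted p = 0.801, limma), with 0.03 and -0.13 in the replicates.

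*upf1* (SPAC16C9.06c, chromosome I, 801141 to 804123, - strand) had 0.115 and 0.111 in the IP (0.113 ± 0.00301, 62.6th percentile) and 0.0283 and 0.0230 in the input (0.0256 ± 0.00376, 70.1st percentile). It stood higher among genes in total RNA than in nascent RNA. Its IP over input relative to the median gene fell by 0.33 on the log2 scale (SE 0.0995, adjusted p = 0.0345, limma), with -0.36 and -0.31 in the replicates. This placed *upf1* at the 28.6th percentile of all genes, within the quartiles. The call was lost without IP replicate 1 (adjusted p = 0.0857), without IP replicate 2 (0.114) and without input replicate 1 (0.116), in limma without trend (0.180), and by edgeR (0.0706) and DESeq2 (0.447). The value itself stayed between -0.38 and -0.25 over 15 alternatives, of which 9 kept the call.

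Both exosome nuclease genes were moderately transcribed, *dis3* more than *rrp6*. *dis3* (SPBC26H8.10, chromosome II, 3970898 to 3974218, + strand) encodes the essential nuclease of the exosome core. It had 0.124 and 0.127 in the IP (0.126 ± 0.00167, 67.1st percentile) and 0.0334 and 0.0259 in the input (0.0297 ± 0.00534, 74.8th percentile). *rrp6* (SPAC1F3.01, chromosome I, 610842 to 613338, + strand) encodes the nuclear nuclease. It had 0.0781 and 0.0761 in the IP (0.0771 ± 0.00140, 44.8th percentile) and 0.0166 and 0.0149 in the input (0.0157 ± 0.00121, 51.5th percentile). The IP replicates of the 2 genes did not overlap. Relative to the median gene, *dis3* fell in the IP by 0.39 on the log2 scale (SE 0.100, adjusted p = 0.0188, limma), with -0.49 and -0.29 in the replicates. This placed *dis3* at the 24.6th percentile of all genes, close to the lower quartile. Without IP replicate 1 the adjusted p was 0.0511, without input replicate 1 it was 0.0879, in limma without trend it was 0.163, and by DESeq2 it was 0.293. The call held in the other 11 of 15 alternatives. *rrp6* had -0.19 (SE 0.117, adjusted p = 0.274), with -0.15 and -0.23 in the replicates, and was not called in any of 15 alternatives.

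The cofactor genes were also higher placed in total RNA. *mtr4* (SPAC6F12.16c, chromosome I, 1344924 to 1348614, - strand) had 0.110 and 0.106 in the IP (0.108 ± 0.00296, 60.8th percentile) and 0.0330 and 0.0281 in the input (0.0306 ± 0.00347, 75.6th percentile), the highest input density of the 9 genes. Its IP over input relative to the median gene was the lowest of the set. It fell by 0.66 on the log2 scale (SE 0.0933, adjusted p = 0.000608, limma), with -0.65 and -0.67 in the replicates, at the 11.2th percentile of all genes. The call held in 14 of 15 alternatives (-0.67 to -0.58) and was lost only in limma without trend (adjusted p = 0.0685). *cid14* (SPAC12G12.13c, chromosome I, 321764 to 324129, + strand) had 0.0926 and 0.0983 in the IP (0.0955 ± 0.00409, 55.1st percentile) and 0.0231 and 0.0184 in the input (0.0208 ± 0.00335, 62.5th percentile). It had -0.27 (SE 0.115, adjusted p = 0.112), with -0.38 and -0.16 in the replicates. *cid14* lay at the 33.7th percentile of all genes, whose median was -0.09, and did not pass the test.

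The order of the genes differed between nascent and total RNA. In the IP, the mean density decreased in the order *dhp1*, *dis3*, *upf1*, *mtr4*, *cid14*, *dcp2*, *rrp6*, *dcp1* and *din1*. Replicates of neighbours overlapped between *dhp1* and *dis3* and between *cid14* and *dcp2*, and across the other 6 steps the replicates did not overlap. In the input, the order was *mtr4*, *dis3*, *upf1*, *cid14*, *dhp1*, *dcp2*, *rrp6*, *din1* and *dcp1*. Here 5 of 8 neighbouring pairs overlapped, and the steps without overlap were from *dhp1* to *dcp2*, from *rrp6* to *din1* and from *din1* to *dcp1*. *dhp1*, at the top in the IP, stood in the middle in the input, beside *cid14*.

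Within the genes, the coding sequence usually held more nascent signal per nt than the UTRs and introns. The median over 4172 protein-coding genes was a log2 ratio of 0.70 and 0.76 in the 2 IP replicates. *dhp1* lay near the top of that range. Its coding sequence (2976 nt) had a density of 0.204 and 0.173 in the IP, and the remaining 1964 nt, of which 1773 are 3′ UTR, had 0.0382 and 0.0439. The log2 ratio was 2.42 and 1.98, at the 97.5th and 92.6th percentile. In the input it was 3.12 and 2.63, at the 97.5th and 96.0th percentile of 2963 genes. The profile of *dhp1* was thus not particular to nascent RNA. Counted on coding sequence alone, *dhp1* reached 0.189 ± 0.0218 in the IP (SD, n = 2, 75.9th percentile), and the range over the 9 genes widened to 3.98-fold.

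*upf1* had the opposite profile. Its UTRs, 36 nt on the 5′ side and 169 nt on the 3′ side, had 0.200 and 0.210 in the IP, from 41 and 91 reads, and its coding sequence had 0.109 and 0.103. The log2 ratio of coding sequence to UTRs was -0.88 and -1.02, at the 2.16th and 1.73rd percentile of the 4172 genes compared. In the input the UTRs had 18 and 9 reads, a density of 0.0279 and 0.0157, and the coding sequence had 0.0283 and 0.0235. The UTRs were thus denser than the coding sequence in both IP replicates and in neither input library. The median log2 ratio of 2963 genes in the input was 0.97 and 0.81, and *upf1* lay under it in both input libraries. With so few UTR reads in the input, *upf1* was not ranked there. Which of the UTRs carried the excess in the IP was not tested.

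Of the 9 intact genes, 3 have an intron between coding segments, and the density before and after it could be compared. The ends of these introns are shown because they are the borders of the segments counted below. The letters are RefSeq sequence, read at the coordinates of the files (build ASM294v2) from the *S. pombe* reference, in which the coding segments of all 10 genes have the same coordinates. All are on the + strand, and capitals mark the first and last bases of the intron.
*rrp6*, 5′ splice site, I:611141-611170: tttgaaaaagctGTaagtgaatttttgaaa
*rrp6*, 3′ splice site, I:611193-611222: taagacgtatgaatatAGgactattctatc
*dis3*, 5′ splice site, II:3971150-3971179: cgaggggaaatgGTaagtattaaaggaatc
*dis3*, 3′ splice site, II:3971308-3971337: aattaactcttacgatAGtgttagagccta
*dcp1*, 5′ splice site, II:3996794-3996823: tcgcaaaaatggGTaagttaacaaaacggt
*dcp1*, 3′ splice site, II:3997049-3997078: tcgttgctaacgttcaAGttaaaaacctca
The 3 introns measure 58 nt (*rrp6*), 164 nt (*dis3*) and 261 nt (*dcp1*), and each begins with GTAAGT.

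Nascent density on *rrp6* was higher before its short intron than after it. Each segment was counted as a whole, so where along the gene the density changed was not tested. The first coding segment (267 nt) had a density of 0.169 and 0.160 in the IP, from 45 and 90 reads, and the second (2067 nt) had 0.0687 and 0.0702. The log2 ratio was 1.29 and 1.19, at the 90.0th and 88.5th percentile of the 923 genes that could be compared, whose medians were 0.50 and 0.47. In the input the ratio of *rrp6* was -0.42 and -0.20, from 11 and 10 reads on the first segment, where the medians of 490 genes were 0.035 and 0.11. The 5′ excess of *rrp6* was thus seen in both IP replicates and in neither input library. *dis3* had hardly any, with 0.056 and 0.091 in the IP (22.4th and 23.9th percentile). *dcp1* lay between them, with 0.68 and 0.81, but from only 13 and 37 reads on its first segment.

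**Figure D3:**
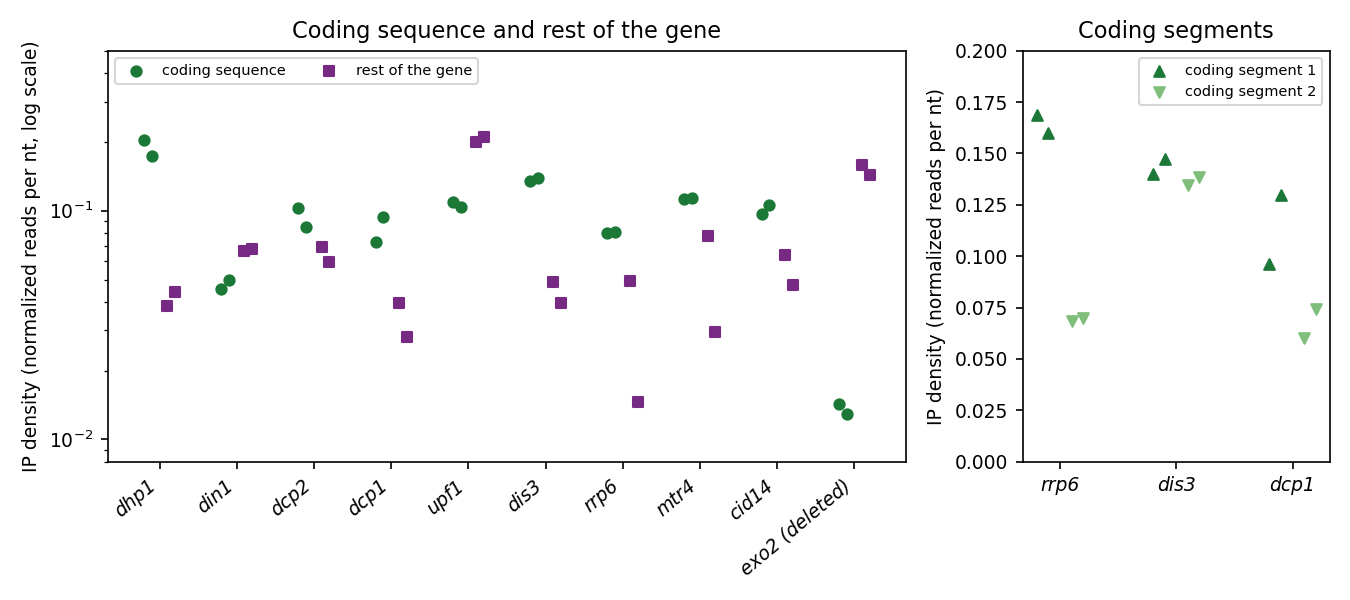
IP density (normalized reads per nt) of the coding sequence and of the rest of each gene (left, log scale) and of the coding segments before and after the intron of *rrp6*, *dis3* and *dcp1* (right, linear scale), with 1 point per IP replicate. *upf1*, *din1* and the deleted *exo2* have the lower density on the coding sequence, and the first segment of *rrp6* lies above 0.15 in both replicates. For *din1* the rest of the gene is 105 nt of 5′ UTR with 7 and 15 IP reads, too few to be ranked among genes.

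Annotated antisense transcripts overlap some of the genes. A XUT was counted as antisense to a gene from 50 nt of overlap on the other strand. This held for 4 of the 9 intact genes (*dcp1*, *dcp2*, *mtr4* and *cid14*), against 21.2% of all protein-coding genes (1086 of 5129), with 5 asXUTs in all. *dhp1*, *din1*, *upf1*, *dis3* and *rrp6* have none. The count stayed at 5 with an overlap of 1 nt or of 200 nt. Of the 5, 4 lie wholly within the gene, and none covers the annotated gene start.

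**Figure D4:**
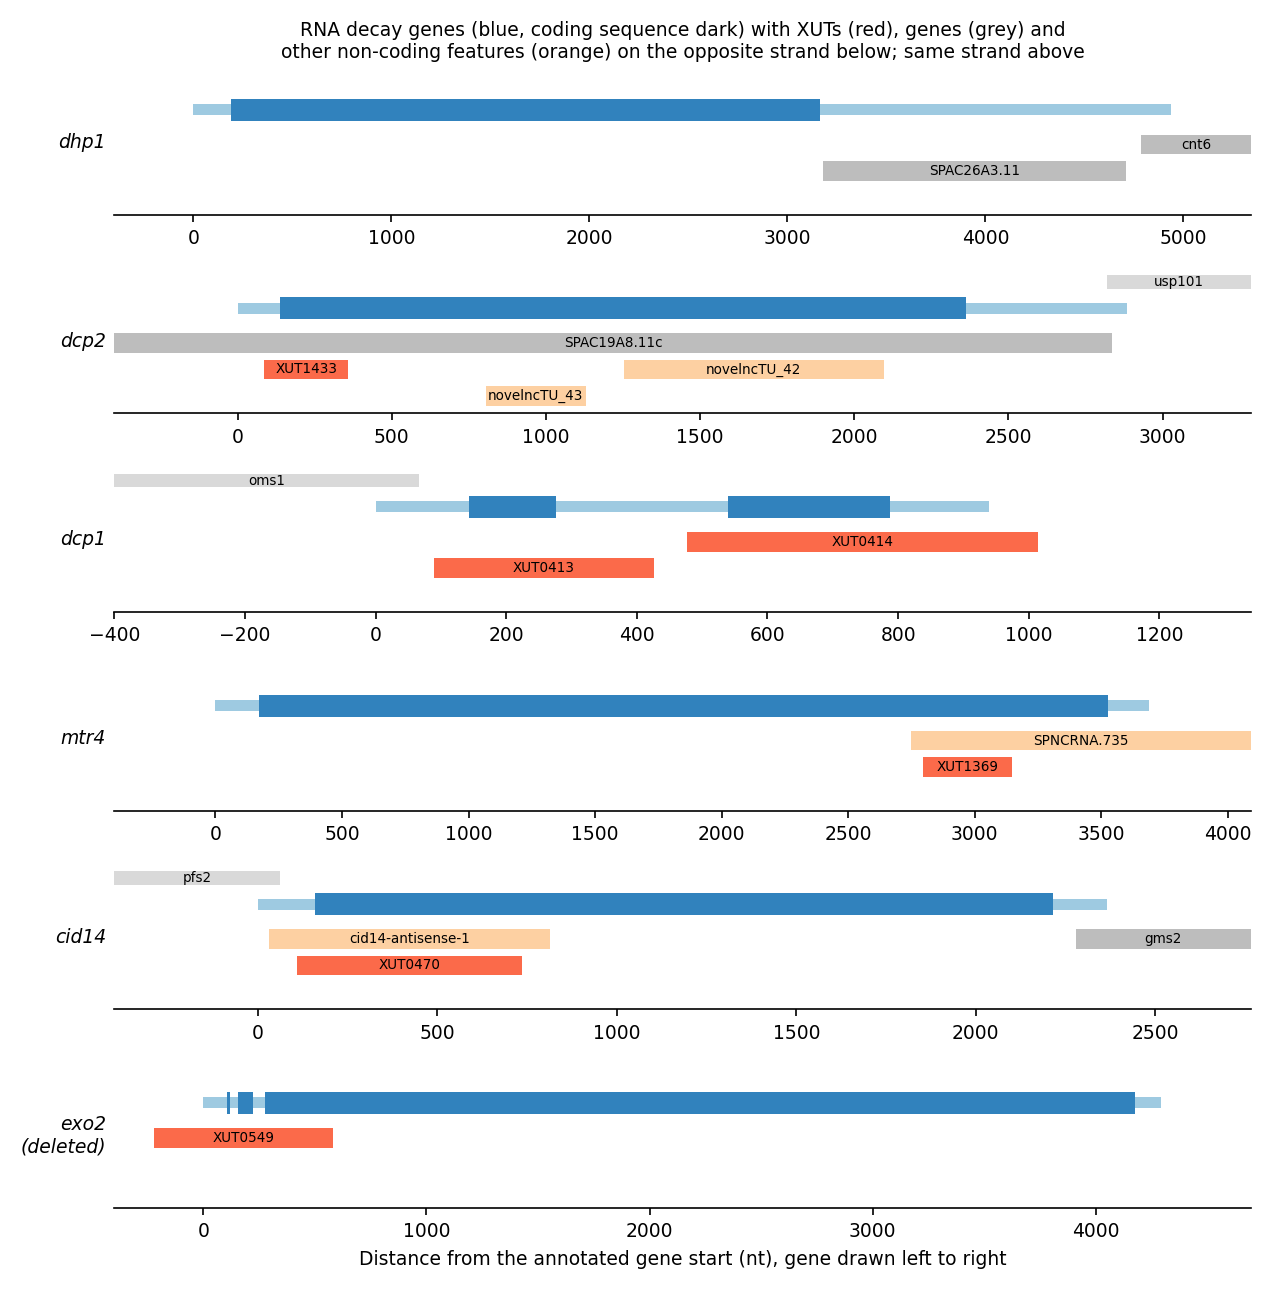
Maps of *dhp1*, *dcp2*, *dcp1*, *mtr4*, *cid14* and the deleted *exo2*, each drawn from its annotated start (0 nt) to the right, with coding sequence in dark blue, overlapping features of the opposite strand below and of the same strand above. XUTs (red) lie within or at the end of 4 intact genes, and XUT0549 crosses the start of *exo2*.

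The nascent signal on these asXUTs was close to the detection limit. XUT0470, within *cid14* (630 nt), had 2 and 2 reads in the IP and 0 and 1 in the input. XUT1369, within *mtr4* (354 nt), had 1 and 2 in the IP and 1 and 0 in the input. XUT1433, at the 5′ part of *dcp2* (274 nt), had 0 and 3 in the IP and 1 and 2 in the input. These 3 lie between the 12.3rd and 14.96th percentile of the 1638 annotated XUTs in the IP, where the median XUT had 5 and 10 reads. The XUTs of *dcp1* were somewhat higher. XUT0413 (338 nt) had 2 and 7 reads in the IP and 0 and 0 in the input. XUT0414 (538 nt, of which 463 nt overlap *dcp1*) had 2 and 10 in the IP and 5 and 0 in the input. They stood at the 46.0th and 36.6th percentile of XUTs in the IP.

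Every asXUT with a read in an IP library was less dense than its gene there. *cid14* exceeded XUT0470 by 29.2-fold (95% interval 7.98 to 242) and 65.4-fold (18 to 541) in the IP replicates. *mtr4* exceeded XUT1369 by 38.8-fold (6.93 to 1538) and 39.4-fold (10.9 to 326). *dcp2* was 8.70-fold higher than XUT1433 in IP replicate 1, where the XUT had 0 reads and was set to a floor of 3. The exact 95% lower limit there was 7.03-fold. In replicate 2, *dcp2* was 15.2-fold higher (5.18 to 74.1). With so few reads on the XUTs these ratios are imprecise, as the width of their intervals shows. *dcp1* exceeded XUT0413 by 8.99-fold (2.36 to 76.3) and 5.60-fold (2.63 to 14.3), and XUT0414 by 14.3-fold (3.76 to 121) and 6.24-fold (3.27 to 13.4). Intervals are exact for the ratio of the 2 read numbers and cover counting error only. The median log2 ratio of gene to asXUT was 3.52 over the 5 pairs, each averaged over the IP replicates. The pair in the middle is *dcp2* with XUT1433, whose value in replicate 1 is set by the floor. Taken per replicate, the median of the 5 pairs was 3.84 and 3.93. Over all pairs with 10 or more reads on the gene, the median was 2.67 (1209 pairs) and 2.81 (1234 pairs), and the gene was the denser partner in 91.6% and 90.4%.

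**Figure D5:**
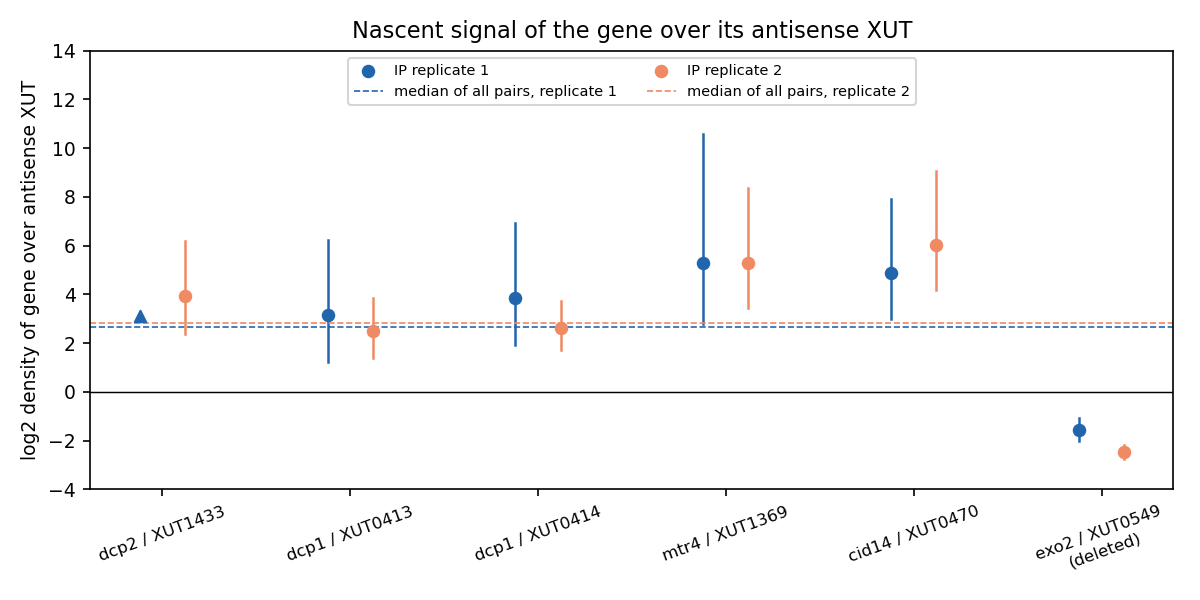
log2 ratio of the density of the gene to that of its antisense XUT in each IP replicate, with exact 95% intervals for counting error, a triangle where the XUT had 0 reads and was set to 3, and dashed lines at the median of all gene and XUT pairs. The 5 pairs of intact genes lie above 0 and the deleted *exo2* lies below it in both replicates.

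The deleted gene was the exception. XUT0549 (800 nt, chromosome I, 1778225 to 1779024) overlaps *exo2* by 580 nt, 388 nt of it coding, and covers the *exo2* start. It had 58 and 208 reads in the IP and 41 and 30 in the input, at the 98.2nd percentile of XUTs in the IP. *exo2* sense density was 0.340 (0.245 to 0.477) and 0.181 (0.148 to 0.221) of that of XUT0549 in the IP replicates. With the marker at *exo2* in these cells, this pair describes the disrupted locus and not a decay gene.

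Other annotated features overlap 6 of the intact genes, and *rrp6*, *upf1* and *din1* overlap none. *dcp2* is the most crowded. SPAC19A8.11c, a gene of 5178 nt on the opposite strand, covers 98.3% of it, although its own coding sequence starts at 2465348, beyond *dcp2*. Outside its coding sequence SPAC19A8.11c had 39 and 105 reads over 4437 nt in the IP and 28 and 22 in the input. The 2837 nt opposite *dcp2* lie within this stretch and were not counted apart. They held at most these reads, against 275 and 481 IP reads on *dcp2*. The non-coding units novelncTU_42 and novelncTU_43 in the same stretch had 6 and 7, and 1 and 2, IP reads.

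The long 3′ UTR of *dhp1* contains the whole of SPAC26A3.11 (1528 nt), a gene on the opposite strand, with 97 and 251 reads in the IP and 87 and 66 in the input. The density of SPAC26A3.11, 0.0635 and 0.0778 in the IP, was above the 0.0382 and 0.0439 outside the coding sequence of *dhp1* itself. *cnt6* overlaps the same 3′ end by 154 nt. SPNCRNA.735, opposite the 3′ part of *mtr4* over 944 nt, had 4 and 7 reads in the IP, and cid14-antisense-1, opposite the 5′ part of *cid14* over 783 nt, had 2 and 3. As with the XUTs at *mtr4* and *cid14*, signal on these non-coding features was low.

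Shorter overlaps touch gene ends. SPBC26H8.11c reaches 122 nt into *dis3* and *gms2* 88 nt into *cid14*, each on the opposite strand. On the same strand, *usp101* shares 67 nt with *dcp2*, *oms1* shares 67 nt with *dcp1* and *pfs2* shares 62 nt with *cid14*, and reads there cannot be assigned to either gene. They lie outside the coding sequences of the decay genes.

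The wider decay pathways were read from a list of 43 other genes. Relative to the median protein-coding gene, 2 of 43 rose in the IP, 10 fell and 31 passed the test in neither direction (limma), and the list's median was -0.077 beside -0.09 for all protein-coding genes. Both that rose belong to nuclear elimination of meiotic transcripts. *red1*, a zinc-finger protein that links RNAs to the exosome, had 1.15 (adjusted p = 0.000134), and *mmi1*, an RNA-binding protein that recognises meiotic transcripts, had 0.50 (adjusted p = 0.00831). The lowest were *pan3*, a subunit of the Pan2-Pan3 deadenylase, at -0.86 (adjusted p = 0.000241), *mtl1*, an Mtr4-like helicase that works with Red1, at -0.74 (adjusted p = 0.00126), and *lsm6*, an LSm ring subunit, at -0.62 (adjusted p = 0.0315).

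By group, 4 of 12 other decapping genes, 3 of 9 deadenylase genes, 1 of 9 exosome ring and cap genes and 1 of 4 Ski complex genes fell, and none of these rose. Among the 7 other exosome nuclease and cofactor genes, 2 rose and 1 fell. *upf2* and *upf3*, the partners of *upf1* in NMD, had -0.16 and 0.14 and passed the test in neither direction. In the list, 10 of 43 genes fell and 2 rose, against a background of 21.4% lower and 10.4% higher. The share of lower calls was close to that of all genes, and the share of higher calls was below it.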

How the data were processed

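NET-Seq libraries (2 IP, 2 input; replicates 1 and 2) of the *exo2*Δ strain were analysed. Per the methods and the submitters' processing notes, the authors removed adapters and mapped reads uniquely with Bowtie to ASM294v2. The counting tool and the basis of the scaling factor are not given in the sources used here. The deposited values of IP replicate 1 are whole-number counts per feature. The deposited values of the other libraries are a signal, reads multiplied by 1 factor per library, and the density is that signal per nt. Division by the smallest step gave whole reads for 100% of values. Deposited columns that pool replicates were not used, 2 of them densities.

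Genes and lists were chosen with earlier results of these data known. The text names every decay gene studied, every feature with 50 nt or more in common with one, and up to the 3 largest calls in each direction of the wider list, of which *rai1* was matched as *din1* (53 of 54 names found). IP and input were compared with limma 3.58.1 (trend) on log2(normalized reads + 0.318), over 8651 features above 0 in 2 or more libraries, with Benjamini-Hochberg adjustment at 0.05, and without and with centring on the median protein-coding gene. Regions were compared where each had 10 reads and coding segments 100 nt. XUTs at 0 reads were set to 3.

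Per the labels, each input was prepared from the biological sample also used for the IP, so the replicate numbers pair the libraries. Replicate differences of IP and input correlated with r = 0.152 over 4644 genes. Coordinates were checked against the reference genome, where 5112 of 5118 coding sequences had a start codon, a stop codon and whole codons. Alternatives were other pseudocounts, filters and centring, no trend, a replicate block, each library left out, coding reads only, edgeR 4.0.16 and DESeq2 1.42.0. On the recovered whole reads, edgeR called 1098 features higher and 1364 lower of 7097. On simulated data with 200 features changed by 2 on the log2 scale, limma recovered 200 with 6 false calls among 8615 features. All simulated libraries were drawn from the IP proportions, and only genes with many reads were changed. The simulation thus checks the code for large changes and does not bear on the smaller differences reported here.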

Additional observations from a re-analysis of the deposited data

How the results depend on the processing

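On the authors' scale, 9 decay genes were higher in the IP under each limma setting and without any 1 library. The read-count tools use their own scaling. The median gene was at log2 -0.04 by edgeR and -0.03 by DESeq2, against 2.38 by limma. With edgeR, 0 of the 9, 649 genes higher and 1074 lower were called. With DESeq2 these were 0, 252 and 591, against 4985 higher and 5 lower in limma. Genes lower numbered 3 without a filter and 1 on coding reads. By edgeR and by DESeq2 the values were -0.0365 and -0.0159 for *dcp2*, -0.31 and -0.30 for *upf1*, -0.37 and -0.36 for *dis3*, -0.16 and -0.15 for *rrp6*, -0.64 and -0.63 for *mtr4*, and -0.24 and -0.24 for *cid14*.

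Relative to the median protein-coding gene, the 3 decay genes lower became 0 in limma without trend, 1 with DESeq2 and 1 to 3 when a library was left out. The 0 higher became 1 with coding reads, 1 with edgeR and 0 to 1 when a library was left out, in each case *dcp1*. Genes higher numbered 526 and became 69 without trend, 794 with edgeR, 299 with DESeq2 and 333 to 617 without a library. Genes lower numbered 1077 and became 184 without trend, 545 with DESeq2, 919 with edgeR and 941 to 1033 without a library. With a pseudocount 10 times larger, 3845 features were lower, against 1420. With the replicate number as a block, which the pairing of the libraries allows, 647 genes were higher and 1242 lower, and the same 3 decay genes were lower (adjusted p = 0.0198 for *upf1*). It changed no other call among the decay genes. Signs of values near 0 turned. *din1* had 0.0805 with edgeR, 0.0555 with DESeq2 and -0.32 to 0.22 without a library (0.0194 without IP replicate 1, 0.22 without input replicate 2). *dcp2* had 0.0768 on coding reads, 0.0238 with edgeR, 0.0316 with DESeq2 and -0.17 to 0.0683 without a library (0.0683 without IP replicate 2). *exo2* had -0.0425 to 0.24 without a library (-0.0425 without input replicate 1). The median of gene over asXUT, 3.52, was 3.85 on coding density and 3.84 to 3.93 without a replicate. The causes of these changes were not tested. Depth limits the asXUTs (0 to 10 reads in an IP library) and *dcp1* in the input (16 reads each, of which 10 and 5 coding).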
